A study of Mus musculus with 2 samples.

Results

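The genes described here are 41 genes that cells switch on when interferons, the signaling proteins released during viral and bacterial sensing, reach their receptors. They are named by symbol, with no measured value in the rule, and the deposited tables hold 28692 genes in all. They comprise 11 antiviral effectors, 4 transcription factors, 5 membrane proteins, 6 sensors of nucleic acids, 8 interferon-inducible GTPases and 7 other induced genes. They were read in CD45+ leukocytes sorted by FACS from the livers of 6-week-old female mice, captured with version 2 of the 10x Chromium 3′ chemistry, where a unique molecular identifier (UMI) lets each transcript be counted once. The data are 1 vehicle library and 1 antibiotic library, the latter from mice that for 1 week drank 1 mg/mL each of ampicillin and metronidazole and 0.5 mg/mL each of neomycin and vancomycin. The comparison asks how interferon response transcripts of liver lymphocytes differ when the microbiome has been depleted. The sources used here do not give the number of mice pooled in a library. With 1 library per group, treatment and library cannot be told apart, and no test between the groups was possible.

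Barcodes with at least 1500 UMIs and under 10% mitochondrial UMIs were taken as cells, which gave 9002 vehicle and 7050 antibiotic cells. Each cell was placed in the first class whose gate it met. B cells had at least 2 Cd79a UMIs and no Cd3e UMI (3016 vehicle and 1340 antibiotic cells). Plasmacytoid dendritic cells (pDCs) had at least 2 Siglech UMIs (174 and 34 cells). NK cells had an Ncr1 UMI and none of Cd3d, Cd3e or Cd3g (256 and 99 cells). NKT-like cells had at least 1 Trac and 1 Cxcr6 UMI (3514 and 4175 cells), and other T cells had at least 2 Trac UMIs and no Cxcr6 (786 and 650 cells). The remaining 1256 and 752 cells met no gate. pDCs are dendritic cells and not lymphocytes, and are known as the main producers of type I interferon.

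Type I interferons act on the Ifnar1 and Ifnar2 receptor, whose kinases activate STAT proteins. Stat2 joins Irf9 in the complex ISGF3, which binds the interferon-stimulated response element (ISRE) in promoters such as those of Isg15 and the Ifit genes. Interferon-γ, made in the liver by NK and NKT cells, acts through the gamma-activated site (GAS), the route best known for Irf1 and the interferon-inducible GTPases. Many of the genes answer to both kinds of interferon, so their transcripts alone do not name the interferon.

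To show what the members share in sequence, their promoters were taken from RefSeq (GRCm38), which held 32 of the 41. Usp18, Ifi27l2a, Dhx58, Zbp1, Iigp1, Gbp4, Rtp4, Parp14 and Tor3a were not matched. The window ran from 250 bases before to 50 bases after the start. The ISRE core was searched as GAAANNGAAA on both strands, and the GAS as TTCNNNGAA, which reads the same on both strands; neighboring matches of a motif may overlap. The core was found in 20 of 32 members (62.5%) and in 3.93% of the 17999 genes of the files that have a promoter in the table. The GAS was found in 8 of 32 members (25%) and in 9.23% of those genes, and 5 members held both. The 250 bases before the start are given for 3 of the genes by which cells with a high response were picked out (Isg15, Ifit1 and Ifit3), for a GTPase (Gbp2) and for the interferon-γ target Irf1. Capitals mark ISRE cores or, in Irf1, the GAS. Isg15 lies on the minus strand (chr4:156200819-156201068) and carries 3 overlapping cores, the nearest 56 bases before the start. Ifit1 (chr19:34640639-34640888, plus strand) and Ifit3 (chr19:34583279-34583528, plus strand) each carry 2, the nearest 75 and 112 bases before the start. Gbp2 (chr3:142620413-142620662, plus strand) carries 1 core 49 bases before the start. The first of the Irf1 promoters in the table (chr11:53769764-53770013, plus strand) carries a GAS 81 bases before the start. The second Irf1 promoter and that of Irf7 carry neither motif in these 250 bases and are not printed.
Isg15: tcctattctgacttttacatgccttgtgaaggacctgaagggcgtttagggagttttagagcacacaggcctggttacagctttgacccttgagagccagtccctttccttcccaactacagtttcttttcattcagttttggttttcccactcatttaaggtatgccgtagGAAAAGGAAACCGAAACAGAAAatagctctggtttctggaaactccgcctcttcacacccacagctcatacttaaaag
Ifit1: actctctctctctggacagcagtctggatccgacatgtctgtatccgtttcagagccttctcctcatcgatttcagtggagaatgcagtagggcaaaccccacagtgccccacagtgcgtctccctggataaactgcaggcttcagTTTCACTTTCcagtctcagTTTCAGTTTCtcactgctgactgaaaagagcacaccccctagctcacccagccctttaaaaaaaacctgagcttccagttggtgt
Ifit3: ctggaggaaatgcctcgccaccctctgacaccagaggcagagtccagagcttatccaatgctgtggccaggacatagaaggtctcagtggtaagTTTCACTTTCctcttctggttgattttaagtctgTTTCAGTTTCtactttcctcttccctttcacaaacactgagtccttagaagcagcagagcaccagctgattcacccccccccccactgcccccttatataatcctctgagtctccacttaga
Gbp2: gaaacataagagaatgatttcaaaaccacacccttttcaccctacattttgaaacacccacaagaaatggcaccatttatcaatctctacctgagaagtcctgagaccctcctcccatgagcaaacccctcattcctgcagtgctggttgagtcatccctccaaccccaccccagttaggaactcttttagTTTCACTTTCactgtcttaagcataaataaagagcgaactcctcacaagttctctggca
Irf1: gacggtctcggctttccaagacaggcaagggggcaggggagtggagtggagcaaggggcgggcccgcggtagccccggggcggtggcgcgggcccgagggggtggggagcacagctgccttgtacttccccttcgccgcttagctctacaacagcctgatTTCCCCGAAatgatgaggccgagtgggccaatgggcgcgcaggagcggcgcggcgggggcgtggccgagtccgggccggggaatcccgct
A match is a description of the letters. In NKT-like cells, the log2 ratio (antibiotic over vehicle) had a median of −0.897 for the 20 members with the core and −0.933 for the 12 without it.

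The libraries held 41474311 (vehicle) and 29811401 (antibiotic) UMIs, with a median of 3515 and 3331 per cell, and 93 cell barcodes occurred in both. Levels are given as CPM, the UMIs of a gene per 1000000 UMIs of all cells of the class, not divided by length because each transcript was counted at its 3′ end. Ratios are antibiotic over vehicle with 95% intervals, which cover counting error only. They treat UMIs as independent and leave out variation between cells, so they are too narrow where a few cells hold many of the UMIs. Genes that a class's own gate does not use were found where they belong: Cd79b was seen in 96.3% and 94.7% of B cells, Klk1 in 64.4% and 52.9% of pDCs, Klre1 in 81.6% and 67.7% of NK cells and Cd3e in 54.4% and 48.1% of NKT-like cells, after each cell was thinned to 1500 UMIs. Trav11, of the invariant NKT cell receptor, was seen in 3.22% and 6.18% of NKT-like cells, so the class is defined by Trac and Cxcr6 and not by that receptor. RNA in empty droplets differed between the libraries, with hepatocyte transcripts at 605.5 (vehicle) and 91.62 CPM (antibiotic), and all 12 hepatocyte markers were lower in antibiotic B and NKT-like cells. Scaled by these markers, free RNA would make up 14.7% and 16.2% of the UMIs in B cells and 13.2% and 12.8% in NK cells. It would make up 7.93% and 9.14% in NKT-like cells, 5.94% and 8.78% in other T cells, and 4.26% and 20.4% in pDCs, the last from 29 and 4 hepatocyte UMIs. Neutrophil markers do not bear out these parts. In the antibiotic library, S100a9 alone was at 2845 CPM in empty droplets, while the 6 neutrophil markers summed to 18.01 CPM in NKT-like cells. Free RNA levels given below use the hepatocyte scaling and may be too high. Neutrophil markers summed to 4205 CPM in vehicle pDCs and 0 in antibiotic pDCs, and to 655.3 and 7.799 CPM in NK cells. Leaving out cells with 5 or more UMIs of neutrophil or macrophage markers, an alternative chosen after the values had been seen, removed 3 vehicle and 3 antibiotic pDCs and 5 vehicle NK cells.

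The 41 genes together were lower in the antibiotic library in all 5 classes. In NKT-like cells their summed level was 3365 CPM with vehicle and 1632 with antibiotics, a ratio of 0.485 (0.478 to 0.492). In other T cells it was 3005 and 1761 CPM (ratio 0.586, 0.566 to 0.607), and in B cells 2052 and 1331 CPM (0.649, 0.628 to 0.670). NK cells had the lowest vehicle level, 1666 CPM against 1279 with antibiotics (0.768, 0.678 to 0.867). pDCs had the highest level in both libraries, 7450 and 5823 CPM (0.782, 0.736 to 0.830), most of it from Bst2, which is also a surface marker of pDCs. Ifi27l2a carried much of the sum in NKT-like, other T and B cells and little of it in NK cells. Without it the ratios were 0.570 (NKT-like), 0.661 (other T), 0.757 (B), 0.787 (NK) and 0.864 (pDC). In all 5 classes the ratio stayed below 1 without it.

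**Figure D1:**
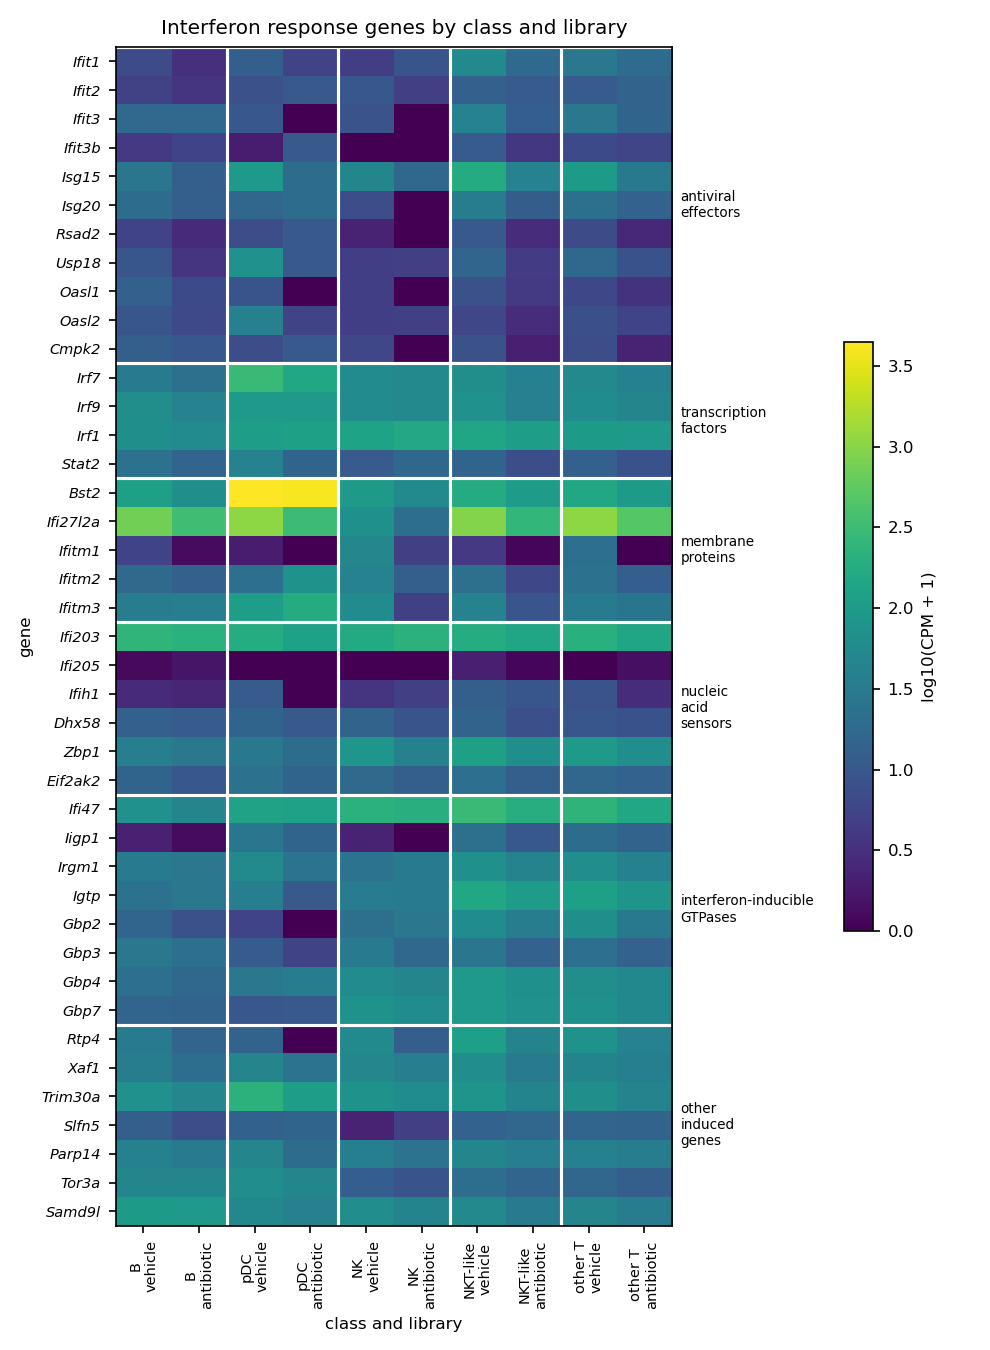
Level of each of the 41 genes (rows, grouped by role) in each class and library (columns), as log10 of CPM + 1, from 1 library per group. Bst2 in pDCs, at 4462 and 4167 CPM, is the brightest pair, and Ifi27l2a is brighter in the vehicle column of every class.

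NKT-like cells held the most UMIs and so the tightest intervals. Of the 40 members with at least 30 UMIs, 31 were at least 1.5-fold lower in the antibiotic library, where 9.36% of all genes tested were, and none was 1.5-fold higher, where 5.54% of all genes were. Counting all 41 members with no minimum, 40 had a lower CPM, and the interval of 39 lay below 1. Counts of this kind were not made over all genes, in this class or in the others. The median log2 ratio of all 41 was −0.96, beside −0.02 for all genes tested.

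The antiviral effectors made up the group with the lowest summed ratio in these cells, 369.9 CPM with vehicle and 103.2 with antibiotics (0.279, 0.264 to 0.294), and 10 of 11 were at least 1.5-fold lower. Isg15, a ubiquitin-like protein attached to other proteins during viral infection, was at 175.2 and 40.09 CPM (0.229, 0.210 to 0.249). After thinning, 16.1% of the vehicle and 4.89% of the antibiotic NKT-like cells held a UMI of it, at median depths of 4244 and 3640 UMIs, while free RNA would give it 5.17 and 2.62 CPM. Ifit1, which binds foreign RNA, was at 54.76 and 16.57 CPM (0.303, 0.264 to 0.347), and its neighbor Ifit3 at 40.62 and 11.25 CPM (0.277, 0.234 to 0.326). Both were thus more than 3-fold lower. Usp18, which removes Isg15 and dampens the type I receptor, was at 14.55 and 3.291 CPM (0.226, 0.166 to 0.304). Rsad2, the antiviral radical enzyme viperin, was at 9.544 and 1.915 CPM (0.201, 0.133 to 0.295). The lowest ratio among members with at least 100 UMIs belonged to Cmpk2, a mitochondrial nucleotide kinase encoded beside Rsad2, at 6.919 and 1.077 CPM (0.156, 0.0891 to 0.257). Isg20, an exonuclease, had a ratio of 0.323, Oasl2 one of 0.378 and Oasl1 one of 0.447. Ifit2 stood apart from its family, at 12.05 and 10.11 CPM (0.839, 0.680 to 1.03).

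The transcription factors of the response were lower by less. Irf1 was at 139.0 and 105.2 CPM (0.757, 0.711 to 0.806). Irf9 was at 68.48 and 37.51 CPM (0.548, 0.496 to 0.604), and Irf7, which drives further interferon production, at 62.21 and 39.61 CPM (0.637, 0.577 to 0.702). Stat2, the partner of Irf9 in ISGF3, was at 14.14 and 6.522 CPM (0.461, 0.364 to 0.581). The 2 components of ISGF3 in the list therefore had lower ratios than Irf1. Their counting intervals did not overlap that of Irf1, but the difference was not tested.

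Among the membrane proteins, Ifi27l2a, a small interferon-induced protein, had more UMIs than any other member in NKT-like cells. It was at 950.3 CPM (935.6 to 965.2) with vehicle and 256.3 CPM (248.6 to 264.1) with antibiotics, a ratio of 0.270 (0.261 to 0.279). After thinning, 54.8% of vehicle and 24.7% of antibiotic NKT-like cells held an Ifi27l2a UMI. Free RNA also held more of it with vehicle (830.6 and 256.5 CPM) and would give NKT-like cells 65.9 and 23.4 CPM, and with that taken off the ratio was 0.263. For scale, NK cells held it in 10.2% and 4.04% of cells at median depths of 2953.5 and 2543 UMIs, and its source there was not settled. Bst2, the tetherin that holds budding virions at the cell surface, was at 175.7 and 103.9 CPM (0.592, 0.557 to 0.628). Ifitm1, Ifitm2 and Ifitm3, which block viral entry, had ratios of 0.0401, 0.239 and 0.199. In the antibiotic library all 3 were under the level that free RNA scaled by hepatocyte markers would give, as was Ifitm1 with vehicle. With antibiotics Ifitm1 was at 0.1197 CPM against 8.74 CPM by that scaling, which is thus too high for it. The part of free RNA in these 3 ratios was not settled.

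The sensors were lower by various amounts. Ifi203, of the family that binds DNA, was at 180.6 and 144.6 CPM (0.801, 0.759 to 0.845). Zbp1, which binds nucleic acids in the Z form, was at 117.7 and 64.32 CPM (0.546, 0.507 to 0.589). Eif2ak2, the double-stranded RNA kinase PKR, had a ratio of 0.577, Dhx58 one of 0.513 and Ifih1, the RNA sensor MDA5, one of 0.722 (0.577 to 0.901). Ifi205 had 18 and 2 UMIs and was under the minimum of 30.

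All 8 interferon-inducible GTPases, which attack the vacuoles of intracellular microbes, were lower, 6 of them at least 1.5-fold, and the summed level was 793.9 and 518.7 CPM (0.653, 0.636 to 0.671). Ifi47 was at 284.1 and 184.6 CPM (0.650, 0.621 to 0.680) and Igtp at 154.8 and 99.86 CPM (0.645, 0.606 to 0.686). The counting interval of their summed ratio did not overlap that of the antiviral effectors, but the difference between the groups of genes was not tested. Gbp7 was at 93.47 and 69.94 CPM (0.748, 0.693 to 0.808) and Gbp4 at 89.24 and 65.88 CPM (0.738, 0.682 to 0.798), the highest ratios of the group. Irgm1 (0.632), Gbp2 (0.587), Gbp3 (0.503) and Iigp1 (0.422) lay lower.

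Of the other induced genes, Rtp4 was at 114.5 and 41.58 CPM (0.363, 0.332 to 0.396). Trim30a, a ubiquitin ligase, was at 76.17 and 43.68 CPM (0.573, 0.523 to 0.628), and Xaf1, an antagonist of the apoptosis inhibitor XIAP, at 59.59 and 29.80 CPM (0.500, 0.448 to 0.557). Samd9l (0.632), Tor3a (0.719) and Parp14 (0.750) were lower by less. Slfn5, of the Schlafen family, was the only member not lower in NKT-like cells, at 13.12 and 15.02 CPM (1.14, 0.951 to 1.38).

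In other T cells, the members were again lower, though the effectors less so. Of 37 members with 30 UMIs, 19 were at least 1.5-fold lower (6.61% of all genes tested) and 0 higher (8.72%). Over all 41, 39 had a lower CPM, 25 with an interval below 1, and the median log2 ratio was −0.60, beside 0.03 for all genes. Ifi27l2a was at 1066 and 479.5 CPM (0.450, 0.421 to 0.480), against 49.4 and 22.5 CPM expected from free RNA. Ifi47 was at 234.9 and 149.6 CPM (0.637, 0.562 to 0.721), Ifi203 at 206.2 and 143.2 CPM (0.694, 0.610 to 0.790), and Bst2 at 148.3 and 96.54 CPM (0.651, 0.556 to 0.760). These 3 ratios lay close together, within each other's intervals. Igtp was at 116.4 and 76.83 CPM (0.660, 0.552 to 0.786). Isg15 had the lowest ratio of the members with at least 100 UMIs, at 97.11 and 28.96 CPM (0.298, 0.228 to 0.386), followed by Gbp2 at 63.77 and 28.56 CPM (0.448, 0.338 to 0.588) and Ifi27l2a. Ifit1 was at 28.08 and 18.10 CPM (0.645, 0.442 to 0.928), a ratio above that in NKT-like cells. The counting intervals did not overlap, but the difference between the classes was not tested. Irf1 was at 97.99 and 90.90 CPM (0.928, 0.780 to 1.10), Parp14 had a ratio of 0.859 and Xaf1 one of 0.846, each with an interval that included 1. Ifitm1 had 70 UMIs in vehicle and 0 in antibiotic other T cells, at least 17.0-fold lower against a floor of 3 UMIs. The 6 B cell markers differed here too, with sums of 675.4 and 1780 CPM, although 5 of them were lower with antibiotics and only 1 was higher. Their part in these values was not tested.

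In B cells, 19 of 38 members with 30 UMIs were at least 1.5-fold lower (4.65% of all genes tested), and 1, Ifit3b, was 1.5-fold higher (7.75%). Over all 41, 35 had a lower CPM, 24 with an interval below 1 and 0 with one above 1, and the median log2 ratio was −0.56 beside 0.08 for all genes. Ifi27l2a was at 743.0 and 340.3 CPM (0.458, 0.430 to 0.488) and was seen in 46.1% and 24.4% of B cells after thinning, at median depths of 2527 and 2148.5 UMIs. Free RNA would give B cells 122 and 41.5 CPM of it. The B cell ratio of Ifi27l2a was close to that in other T cells and above that in NKT-like cells, outside its interval. Ifi203 was at 246.3 and 212.8 CPM (0.864, 0.793 to 0.941) and Bst2 at 119.6 and 63.72 CPM (0.533, 0.458 to 0.618). Samd9l, which inhibits translation, had a higher CPM here than in the T cell classes, at 95.00 and 90.99 CPM (0.958, 0.838 to 1.09). Ifi47 and Trim30a were each at 69.25 CPM with vehicle and had ratios of 0.642 (0.533 to 0.769) and 0.681 (0.568 to 0.812). Isg15 was at 25.87 and 11.56 CPM (0.447, 0.310 to 0.630), and Oasl1 at 12.13 and 5.631 CPM (0.464, 0.269 to 0.761). With Ifi27l2a these were the lowest ratios among the 31 B cell members with at least 100 UMIs. The highest were those of Igtp (1.25, 0.962 to 1.61), Ifitm3 (1.08, 0.868 to 1.34) and Ifit3 (1.00, 0.726 to 1.37), though Ifitm3, at 32.85 and 35.57 CPM, was near the 36.5 and 27.2 CPM that free RNA would give. Of the 120 antibiotic UMIs of Ifitm3, 65 came from 1 cell, and without cells that held myeloid UMIs it was at 10.3 and 3.579 CPM (0.348, 0.173 to 0.638). Ifit3 was at 16.83 and 16.89 CPM in B cells, while in NKT-like cells it was 3.61-fold lower.

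pDCs and NK cells gave few UMIs, and their values are wide. In the 174 and 34 pDCs, 12 of 23 members with 30 UMIs were at least 1.5-fold lower (13.5% of all genes tested) and 2, Ifitm2 and Ifitm3, at least 1.5-fold higher (11.1%). Over all 41, 28 had a lower CPM, 6 with an interval below 1 and 2 with one above 1. Ifi27l2a was at 1076 and 312.6 CPM (0.291, 0.224 to 0.372), Irf7 at 288.3 and 154.0 CPM (0.534, 0.362 to 0.765) and Trim30a at 222.4 and 107.3 CPM (0.482, 0.300 to 0.741). Irf7 was thus higher in pDCs than in any other class in both libraries. Isg15, at 90.75 and 18.66 CPM (0.206, 0.0550 to 0.543), rested on 102 and 4 UMIs. Bst2, the member with the most UMIs, was at 4462 and 4167 CPM (0.934, 0.869 to 1.00), and Ifi203 and Ifi47 had ratios of 0.682 and 0.981 with intervals that included 1. Irf1 (1.07) and Irf9 (1.01) did as well. Ifitm3 was at 109.4 and 172.6 CPM (1.58, 1.06 to 2.29), but without the 3 vehicle and 3 antibiotic pDCs that held myeloid UMIs it was at 64.97 and 5.277 CPM (0.0812, 0.00203 to 0.467). Ifitm2 went from a ratio of 3.65 (1.80 to 7.21) to 8.236 CPM with vehicle and 0 with antibiotics, with an interval of the ratio (0 to 2.92) that includes 1.

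In the 256 and 99 NK cells, 9 of 21 members with 30 UMIs were at least 1.5-fold lower (10.7% of all genes tested) and 0 higher (11.7%). Over all 41, 29 had a lower CPM, 7 with an interval below 1, and with 1 more UMI asked of each gate the summed log2 ratio of −0.382 became −0.175 (−0.367 to 0.0144). Only Irf1, Ifi203 and Ifi47 had 100 UMIs. Ifi47 was at 215.9 and 198.9 CPM (0.921, 0.660 to 1.27), Ifi203 at 167.3 and 218.4 CPM (1.31, 0.938 to 1.80) and Irf1 at 128.6 and 159.9 CPM (1.24, 0.844 to 1.80). No difference was detectable in these 3 at this depth. Of the members with fewer UMIs, Rtp4 was at 53.67 and 11.70 CPM (0.218, 0.0433 to 0.681), Isg15 at 46.18 and 15.60 CPM (0.338, 0.0874 to 0.940) and Zbp1 at 79.89 and 38.99 CPM (0.488, 0.223 to 0.957). Ifi27l2a was at 66.16 and 19.50 CPM. Free RNA scaled by hepatocyte markers would give 110 and 32.7 CPM, more than was counted, so that scaling is too high here. Whether NK cells made this transcript was therefore not settled. Ifitm3 was at 57.42 and 3.899 CPM, and without the 5 vehicle NK cells that held myeloid UMIs at 7.620 and 3.899 CPM (0.512, 0.0111 to 4.22).

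**Figure D2:**
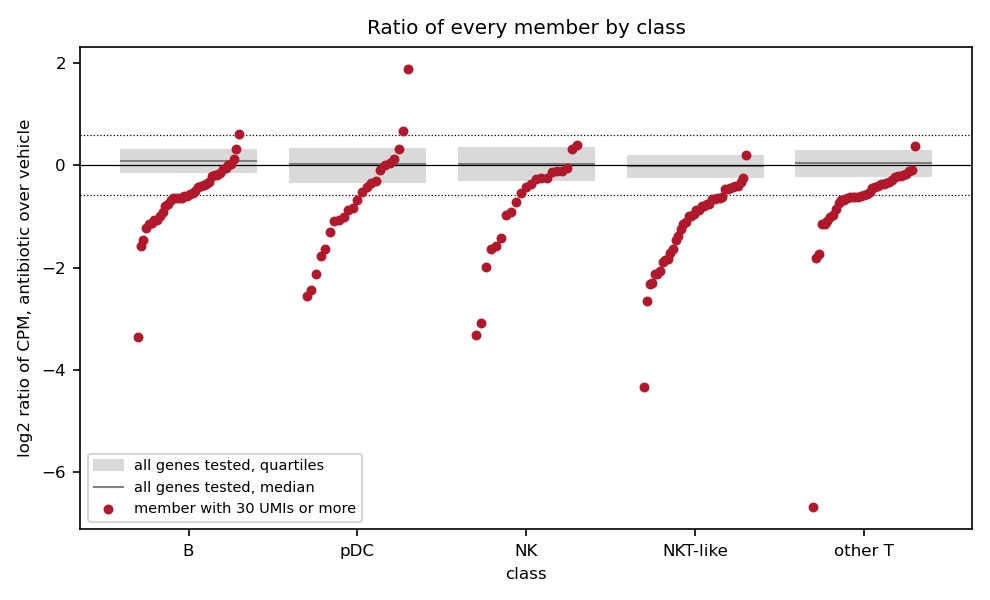
Log2 ratio of CPM, antibiotic over vehicle, with 0.5 added to each count, for every member with at least 30 UMIs in a class (points, sorted), beside the median and quartiles of all genes tested (gray), from 1 library per group. Dotted lines mark 1.5-fold, and 39 of the 40 NKT-like points lie below 0. The lowest point is Ifitm1 in other T cells, with 0 UMIs in the antibiotic library, whose place depends on the added 0.5.

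A lower mean can come from fewer cells with a strong response or from a lower level in each cell, so both were measured separately. Every cell was thinned to 1500 UMIs, and a cell was called high where at least 3 of 9 indicators had a UMI. These were Isg15, Ifit1, Ifit2, Rsad2, Usp18, Oasl1, Oasl2, Cmpk2, and Ifit3 or its near copy Ifit3b counted as 1. In NKT-like cells, 81 of 3514 vehicle cells (2.31%, 1.83 to 2.86) and 14 of 4175 antibiotic cells (0.335%, 0.183 to 0.562) were high, a ratio of shares of 0.145 (0.0762 to 0.258). In other T cells it was 15 of 786 (1.91%, 1.07 to 3.13) and 2 of 650 (0.308%, 0.0373 to 1.11), with a ratio of 0.161 (0.0179 to 0.693). Among B cells, 16 of 3016 (0.531%, 0.304 to 0.860) and 4 of 1340 (0.299%, 0.0814 to 0.763) were high, and the interval of the ratio of 0.563 (0.137 to 1.74) includes 1. pDCs gave 3 of 174 (1.72%), of which 2 were scored as doublets, and 0 of 34, which allows a share of up to 8.82% by a count of 3 (exact upper bound 10.3%). NK cells gave 0 of 256, which allows up to 1.17% (1.43%), and 0 of 99, which allows up to 3.03% (3.66%). High NKT-like cells had a median depth of 4143 UMIs against 4249 in the rest with vehicle and of 3718.5 against 3639 with antibiotics, and 3 of the 81 were scored as doublets.

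**Figure D3:**
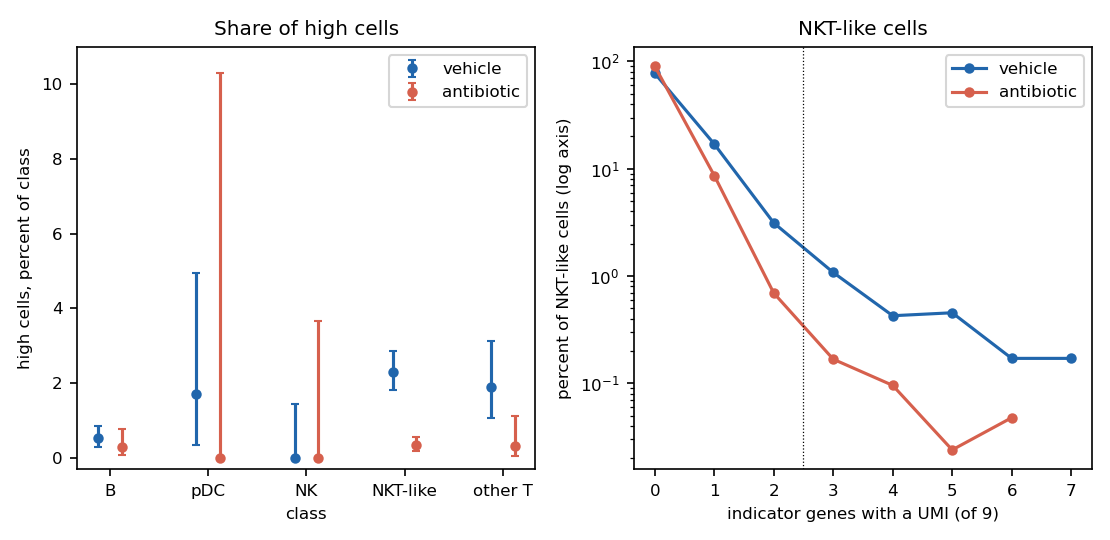
Left, share of high cells by class and library with exact 95% intervals. Right, percent of NKT-like cells (log axis) by number of the 9 indicators seen in 1500 UMIs, where the dotted line marks the threshold of 3 and the vehicle curve lies above the antibiotic curve from 1 indicator on.

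High cells, as set by this cutoff, held only part of the difference. In NKT-like cells thinned to 1500 UMIs, the mean was 5.03 member UMIs per cell with vehicle and 2.43 with antibiotics, a difference of 2.59, of which high cells carried 0.570 (22.0%) and the remaining cells 2.02. Other T cells were at 4.42 and 2.62 UMIs, with 21.5% of the difference from high cells. In B cells, at 3 and 1.85 UMIs, only 3.54% came from high cells. For the indicator genes themselves, which define the high cells, the part was 55.3% in NKT-like cells, 55.8% in other T cells and 12.8% in B cells. The split was made at this cutoff only. Any responding cell with fewer indicators in its 1500 UMIs counts among the remaining cells, which lowers the part given to high cells.

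Outside the high cells the members were also lower. In the 3433 vehicle and 4161 antibiotic NKT-like cells that were not high, the 41 genes summed to 3039 and 1594 CPM (0.524, 0.517 to 0.532). The ratio was 0.603 (0.581 to 0.625) in other T cells, 0.629 (0.608 to 0.651) in B cells and 0.801 (0.754 to 0.851) in pDCs. In NKT-like cells with no indicator seen after thinning, 2725 and 3771 cells, the sum was 2698 and 1473 CPM (0.546, 0.537 to 0.555). Before thinning, these cells held the indicator genes at 93.32 CPM with vehicle and 38.26 CPM with antibiotics. Responding cells may thus remain among them. Ifi27l2a had the same ratio with and without high NKT-like cells, 0.270 and 0.272. The 30 members that are neither indicators nor Ifi27l2a had a ratio of 0.618 (0.607 to 0.628) in all NKT-like cells and 0.657 (0.646 to 0.669) outside the high ones.

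The distribution over cells showed the same. The median NKT-like cell held 4 member UMIs of 1500 with vehicle and 2 with antibiotics, the 90th percentile was 10 and 5, and the 99th was 27 and 10. Cells with no member UMI made up 4.33% and 13.7%. In B cells the median was 2 and 1, the 99th percentile 17 and 11, and cells with none 15.0% and 24.6%. pDCs held the most, with a median of 11 and 8 and no cell without a member UMI.

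High cells expressed the rest of the list as well. In vehicle NKT-like cells the indicator genes were higher in high than in other cells by construction, by 106-fold for Rsad2 and 21.3-fold for Isg15. Of the 31 members that did not define them, 28 were higher in high cells, all 28 with an interval above 1, and their median ratio was 5.18. Slfn5 led these at 195.5 and 8.968 CPM (21.8-fold, 16.2 to 29.1). The GTPase Iigp1 followed at 294.6 and 15.19 CPM (19.4-fold), then Isg20 (13.5-fold), Ifih1 (13.5-fold) and Tor3a (10.1-fold). Slfn5 was thus higher in high cells although its level over all NKT-like cells was not lower with antibiotics. Among the 28, Irf1, at 225 and 137 CPM (1.64-fold, 1.30 to 2.04), Irf9 (2.29-fold) and Ifi27l2a, at 2295 and 919.7 CPM (2.5-fold, 2.33 to 2.67), had the lowest ratios. Ifitm1, Ifitm2 and Ifi205 had 0, 3 and 0 UMIs in the high cells. Among genes outside the 41 with at least 30 UMIs in the class, Ifi204 was 51.2-fold, the antiviral GTPase Mx1 29.1-fold, Herc6 7.80-fold, Ddx60 6.98-fold and Oas3 5.80-fold higher in high cells. These are differences between cells of 1 library, with no replicate. Ratios of high over other cells were read only for listed genes, here and below, so no share over all genes stands beside these counts.

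**Figure D4:**
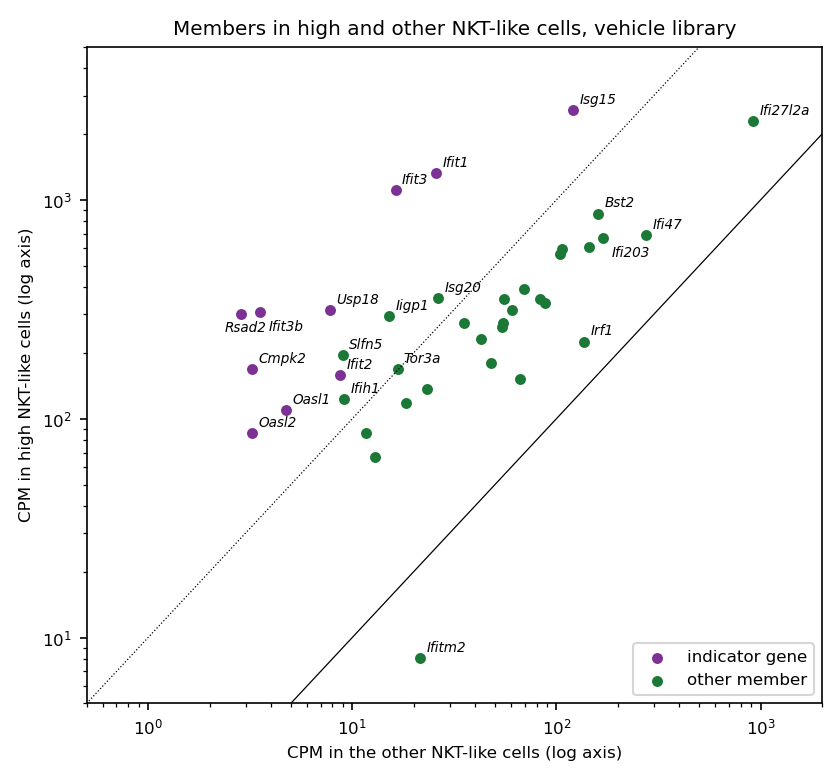
CPM of the members in the 81 high (y axis) and 3433 other (x axis) NKT-like cells of the vehicle library, both axes log. The solid line marks equal levels and the dotted line a 10-fold difference; Ifitm1 and Ifi205, with 0 UMIs in high cells, are not drawn, and Ifitm2 is the only point below the solid line.

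The few high cells of the antibiotic library had a like profile. In the 14 antibiotic NKT-like high cells, 28 of the 31 members that did not define them were higher than in the other cells, 23 with an interval above 1, and the median ratio was 5.84. The 41 genes summed to 14057.8 CPM there and to 17637.5 CPM in the 81 vehicle high cells (ratio 0.797, 0.737 to 0.861). In B cells, the 16 vehicle high cells had 26 of these 31 members higher (median 5.25-fold), led by Slfn5 (18.3-fold, 8.13 to 36.4) and Irf7 (14.6-fold, 8.77 to 23.0). The 15 vehicle high cells among other T cells had 28 of 31 higher (median 4.87-fold), with Slfn5 at 14.9-fold and Stat2 at 14-fold. Among the 4 high B cells of the antibiotic library, 65 Ifitm3 UMIs were counted, and 1 of the 4 held 5 or more myeloid UMIs.

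Within the classes, subsets set by a further gene, chosen after the values had been seen, gave ratios below 1 for Ifi27l2a and for the other 40 members. The share of high cells was not lower with antibiotics in all of them, at 0.254% and 0.518% in B cells with a Vpreb3 UMI, 0.384% and 0.482% in those with an Fcer2a UMI and 0.725% and 0.885% in other T cells with a Cd8b1 UMI, each from at most 7 high cells. NKT-like cells with a Klrb1c (NK1.1) UMI numbered 2202 and 3424, so the makeup of the class differed between the libraries. Ifi27l2a was at 903.6 and 236.5 CPM in them (0.262, 0.251 to 0.272) and at 1027 and 344.8 CPM in NKT-like cells without a Klrb1c UMI (0.336, 0.314 to 0.358). The other 40 members had ratios of 0.577 and 0.567, which lay within each other's intervals. NKT-like cells with a Trav11 UMI, 312 and 540, had an Ifi27l2a ratio of 0.243 (0.220 to 0.267) and a ratio of 0.600 (0.572 to 0.630) for the other 40. In other T cells the ratios of Ifi27l2a and of the other 40 were 0.653 and 0.791 with a Ccr7 UMI, a gene of naive and central memory T cells, and 0.330 and 0.549 without one. For neither quantity did the counting intervals overlap, but the difference between the subsets was not tested. High cells in other T cells numbered 3 of 409 and 1 of 221 with a Ccr7 UMI and 12 of 377 and 1 of 429 without. B cells with an Fcer2a (CD23) UMI, 1822 and 622, had ratios of 0.515 and 0.844, and those with a Vpreb3 UMI, 1572 and 772, of 0.403 and 0.816.

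The rest of the pathway was read from lists of its other parts. Of 11 interferon genes, 1, Ifng, passed 30 UMIs in NKT-like cells, at 84.76 and 35.54 CPM (0.419, 0.380 to 0.462). In NK cells Ifng was at 93.62 and 136.5 CPM (1.46, 0.947 to 2.21). In pDCs no Ifna1, Ifna2 or Ifna4 UMI was counted in either library. Of the 6 receptor genes, 4 were lower, 1 was higher and 1 had no UMI in NKT-like cells. Ifngr1 was the higher one, at 288.6 and 384.3 CPM (1.33, 1.28 to 1.38), and with it the sum was higher too, at 515.8 and 585.7 CPM. Its partner Ifngr2, at 4.951 and 1.496 CPM (ratio 0.302), was the only one at least 1.5-fold lower, and Ifnar2 (0.991) and Ifnar1 (0.925) had intervals that included 1. Free RNA itself held Ifngr2 at 29.72 and 17.85 CPM, and its part in these low levels was not taken off. The counts that follow stand beside 9.36% of all genes tested that were at least 1.5-fold lower and 5.54% higher. Of the 6 brakes on the pathway, 0 passed 1.5-fold in NKT-like cells; Socs1, which blocks the receptor kinases, was at 81.60 and 67.67 CPM (0.829, 0.766 to 0.898). Of 35 other interferon-induced genes, 33 were lower in NKT-like cells and 10 at least 1.5-fold, but Ly6e, the one with the most UMIs, was at 1842 and 2198 CPM (1.19, 1.18 to 1.21). All 12 genes of class I antigen presentation were lower in NKT-like cells, with B2m at 6967 and 4848 CPM (0.696, 0.690 to 0.702) and H2-K1 at 2472 and 1820 CPM (0.736, 0.725 to 0.747). Only 1 of the 12 was at least 1.5-fold lower, which is near the share of all genes tested. Counts of genes lower by any amount, such as these 12 and the 33 above, were not made over all genes.

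Some values rest on sequences that near copies share. Of the 50-base stretches in the last 500 bases of its transcripts, Ifi205 shared 79.2% with other genes, Ifit3 14.9% with Ifit3b, Ifitm3 14% and Ifitm1 11.8%, so reads of these may be split or lost between copies, and Ifi205 in particular is uncertain. Ifi203 overlaps Mndal, Igtp overlaps Irgm2, Irf9 overlaps Rnf31 and Gbp4 overlaps Gbp8 and Gbp9 on the same strand, and reads there cannot be assigned with certainty.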

How the data were processed

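UMI counts of every gene and barcode are given as deposited by the authors, who used bcl2fastq and Cell Ranger on mm10 according to the submitters' processing notes. Their versions are not stated there. The counts are whole numbers, unfiltered and not normalized. Groups were taken from the labels, with 1 library each, so counts were summed over the cells of a class and no test was made. Intervals are at 95%: exact Poisson for CPM, Clopper-Pearson for shares, and for ratios the exact interval conditional on the sum of both Poisson counts. Sums with 30 or more UMIs over both libraries entered the 1.5-fold counts, with 0.5 added. A count of 0 was given a limit of 3 counts. The ratio intervals were tried on simulated Poisson counts without variation between cells or libraries. That trial cannot show how well they hold for these data.

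Shares of cells with a UMI were read after thinning each cell once to 1500 UMIs (seed 11). Doublets were scored with Scrublet in scanpy 1.11.5 at an expected 6%, which marked 4.44% of vehicle and 2% of antibiotic cells, and were kept in the reported values. Free RNA was read from barcodes with at most 100 UMIs, scaled by hepatocyte markers. Positions came from GENCODE vM21 (GRCm38), which held 98.8% of gene IDs, and promoters from RefSeq. Members given in full had 100 UMIs in a class, and of these the 6 with the most UMIs and the 3 highest and 3 lowest ratios were named. Of other lists up to 4 genes with the highest mean CPM were named, and of the genes higher in high cells the 5 members and 5 others with the highest ratios at 30 UMIs or more. The members and lists were chosen with earlier results of these data known. Alternatives covered cell filters, gates, doublets, thresholds, scaling and free RNA. Python 3.11.15, numpy 2.4.6, scipy 1.17.1 and pandas 2.3.3 were used. One gene of the lists is not reported here.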

Additional observations from a re-analysis of the deposited data

Results flagged for a closer look

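The ratio of antibiotic over vehicle of Ifitm2 lay below 1 in 4 classes, at 0.703 (B), 0.293 (NK), 0.239 (NKT-like) and 0.487 (other T), and above 1 in pDCs, at 3.65. Ifitm3 was likewise higher in antibiotic pDCs (1.58) and lower in NK (0.0679) and NKT-like cells (0.199). The differences between classes were not tested. In pDCs both values rested on 3 vehicle and 3 antibiotic cells with 5 or more UMIs of neutrophil or macrophage markers. Without them Ifitm2 was at 8.236 and 0 CPM, and the interval of its ratio (0 to 2.92) includes 1, so no difference was detectable. Ifitm3 was then at 64.97 and 5.277 CPM (0.0812), lower with antibiotics, but with a wide interval (0.00203 to 0.467) from few UMIs. In NK cells, without 5 vehicle cells of this kind, Ifitm3 moved from 0.0679 to 0.512 and Ifitm2 from 0.293 to 0.614, with intervals that then included 1. Without such cells the Ifitm2 ratio was 0.435 in B, 0.233 in other T and 0.296 in NKT-like cells.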

How the results depend on the processing

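Of 250 values under alternatives, 200 stayed within the counting interval of the reported value, or within 1.5 times for counts, and 50 did not. Direction was read for summed ratios only: all 50 summed log2 ratios and all 30 outside high cells remained below 0. The 90 shares of high cells and the 80 counts of members past 1.5-fold were not given a direction. The summed log2 ratio in B cells was −0.474 in cells of at least 2500 UMIs (−0.571 outside high cells), −0.678 without myeloid-marker cells (added after the data had been seen), −0.684 as a mean over cells, −0.698 with median-of-ratios scaling and −0.402 without Ifi27l2a. Without the member with the most UMIs it was −0.811 in NKT-like cells and −0.597 in other T cells (Ifi27l2a), and −0.851 in pDCs (Bst2). It was −1.07 in NKT-like cells without doublets. Scaled without ribosomal and mitochondrial genes it was −0.89 in NKT-like cells and −0.266 in pDCs, where subtracting free RNA gave −0.174. With 1 more UMI asked of each gate it was −0.175 in NK cells, also outside high cells, with an interval that included 0. With high set at 2 of 9 indicators, the share of high cells in vehicle and antibiotic was 5.44% and 1.03% in NKT-like, 3.94% and 1.85% in other T and 1.82% (vehicle) in B cells, and NKT-like cells outside them had a log2 ratio of −0.893. At 4 of 9 it was 1.22% and 0.168% in NKT-like cells, 0.763% in vehicle other T cells, and 0.232% and 0.0746% in B cells. Not thinned, it was 6.12% and 1.13% in NKT-like, 4.2% and 1.85% in other T and 1.23% in vehicle B cells. At 2-fold, 17 NKT-like, 7 other T and 8 B cell members were lower, and 0 B and 1 pDC members higher. With no minimum on UMIs, 19 pDC and 14 NK members were lower and 2 B, 7 pDC, 4 NK and 1 other T members higher. Members 1.5-fold higher numbered 2 (B), 0 (pDC) and 1 (other T) with stricter gates, where 4 NK members were lower, 1 (pDC) without doublets, 0 (B and pDC) without myeloid-marker cells, and 0 (B) with median-of-ratios scaling. The cause of these shifts was not tested. No paired analysis was possible because each group is 1 library, for which reason no replicate could be left out either. Depth limits pDCs and NK cells most, with 214321 and 256444 UMIs in the antibiotic library.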

Other observations

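Cells that met none of the 5 gates also held fewer member UMIs with antibiotics. Thinned to 1500 UMIs, the 1256 vehicle cells held a mean of 5.88 and the 752 antibiotic cells 3.04, and 31 (2.47%, 1.68 to 3.49) and 8 (1.06%, 0.460 to 2.09) of them were high, a ratio of 0.431 (0.171 to 0.959). These cells are a mixture that was not named here.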
